A study of Mus musculus with 6 samples.

Results

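The genes described here are mouse counterparts of 10 human Alzheimer's disease risk loci other than Plcg2, namely Picalm, Bin1, Cd2ap, Sorl1, Abca7, Cd33, Ms4a6d, Abi3, Ptk2b and Mef2c. They were chosen by symbol, and each symbol matched 1 of the 32285 genes counted, so 10 of 32285 genes are reported. The groups, with 2 libraries each, were 5xFAD-P522R, 5xFAD-M28L and 5xFAD. P522R and M28L are amino acid changes in phospholipase C-γ2, a signalling enzyme of myeloid cells, and in human genetics they go with lower and higher disease risk. 5xFAD, a set of transgenes driven in neurons by the Thy1 promoter that leads to amyloid plaques, was carried by all 3 groups, and no group without it was analysed here. The libraries are single-nucleus RNA-seq of frozen cortex from mice aged 7.5 months, made from nuclei that stained negative for the neuronal protein NeuN. Nuclei of male and female mice were pooled in every library. The zygosity of the variants, the number of animals pooled, and whether replicates 2 and 3 come from separate animals are not given in the sources used here, so p-values measure the spread between these libraries, which may be technical.

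Much of the heritable risk of late-onset Alzheimer's disease lies near genes used by microglia, the resident macrophages of the brain, and by cells that internalise and sort membrane proteins. Picalm, Bin1 and Cd2ap act in endocytosis, in which a clathrin coat bends the membrane, curvature-sensing proteins shape the neck of the bud, and actin pulls the vesicle inward. Sorl1 then returns cargo such as the amyloid precursor protein from endosomes to the Golgi. Cd33 and the Ms4a proteins sit on the surface of myeloid cells, while Abi3, Ptk2b and Mef2c act in the actin machinery, in kinase signalling and in transcription. Near plaques, microglia take on a disease-associated state, in which genes of the resting (homeostatic) state are lowered and genes for lipid handling and lysosomes are raised.

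Libraries held 9269 to 13783 barcodes and 53326947 to 72288942 UMIs (unique transcript molecules), with medians of 3842 to 4972 UMIs per barcode, and any pair of libraries shared 20 to 71 barcodes. After removal of 2566 called doublets, 60085 nuclei remained, of which 52566 fell in clusters that could be named from markers. Among the 11 cell types were 28099 oligodendrocyte-like and 7915 microglia-like nuclei. Microglia comprised 1806 disease-associated-like, 3232 homeostatic-like and 577 interferon-like nuclei. NeuN-negative sorting left 1581 excitatory and 2123 inhibitory neuron-like nuclei. The disease-associated-like cluster was higher in 21 of 21 measured state markers, led by Gpnmb and Atp6v0d2, the homeostatic-like in 8 of 10, and the interferon-like in 14 of 14. A sub-cluster of 543 nuclei that carried 10 oligodendrocyte markers and a median of 7559 UMIs was left out of the microglia. Of it, 334 nuclei came from 5xFAD-P522R replicate 3.

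The makeup of the microglia differed between libraries of the 5xFAD group, which enters every comparison with it. The disease-associated-like state made up 37.1% and 36.2% of microglia-like nuclei in 5xFAD-P522R (replicates 2 and 3), 7.04% and 10.25% in 5xFAD-M28L, and 11.4% and 33.8% in 5xFAD. In 5xFAD replicate 2 only 4 of 454 female nuclei were disease-associated-like, a share of 0.881% (exact 95% interval 0.241 to 2.24%, counting error only), against 98 of 525 male nuclei, or 18.7%. Female nuclei of 5xFAD replicate 3 had a share of 35.8%. Female nuclei made up 76.2% and 73.3% of the microglia-like nuclei that could be sexed in 5xFAD-P522R, 47.9% and 62.0% in 5xFAD-M28L, and 46.4% and 69.7% in 5xFAD. The main comparisons with 5xFAD in microglia-like nuclei are therefore also given without its replicate 2, which leaves 1 library of 5xFAD, assumed to vary like the other groups.

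RefSeq gave promoters (250 bases before to 50 after a transcription start, GRCm38.p6) for 6 of the 10 genes. Those of Picalm, Cd2ap and Cd33 are shown because they stand for 2 patterns of use described below, Picalm and Cd2ap being read in every cell type and Cd33 almost only in microglia and border macrophages. Capitals mark TCACGTGA, the E-box bound by MITF and TFE factors, which regulate lysosomal genes.
Picalm, chr7:90129963-90130262, plus strand: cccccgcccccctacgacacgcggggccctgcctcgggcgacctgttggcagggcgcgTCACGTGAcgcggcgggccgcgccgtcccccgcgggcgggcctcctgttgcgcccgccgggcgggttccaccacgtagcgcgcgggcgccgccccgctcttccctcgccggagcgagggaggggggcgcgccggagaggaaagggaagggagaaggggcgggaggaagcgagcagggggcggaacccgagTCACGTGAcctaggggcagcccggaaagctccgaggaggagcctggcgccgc
Cd2ap, chr17:42876375-42876674, minus strand: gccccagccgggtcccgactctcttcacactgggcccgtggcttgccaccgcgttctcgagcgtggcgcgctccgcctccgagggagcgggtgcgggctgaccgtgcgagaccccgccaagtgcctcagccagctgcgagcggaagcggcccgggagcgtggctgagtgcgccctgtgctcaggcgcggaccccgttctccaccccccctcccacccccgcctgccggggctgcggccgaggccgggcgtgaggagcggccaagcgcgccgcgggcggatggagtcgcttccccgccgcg
Cd33, chr7:43533122-43533421, minus strand: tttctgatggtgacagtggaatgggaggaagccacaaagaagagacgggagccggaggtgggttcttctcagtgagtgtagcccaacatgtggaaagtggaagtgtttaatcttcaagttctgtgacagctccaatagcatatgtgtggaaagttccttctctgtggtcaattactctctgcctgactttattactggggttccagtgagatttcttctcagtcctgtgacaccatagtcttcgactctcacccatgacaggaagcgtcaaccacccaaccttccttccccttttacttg
GC content was 78% in the Picalm promoter and 77% in that of Cd2ap, with 44 and 41 CpG dinucleotides, against 47.7% and 4 CpGs in that of Cd33. Over all 32851 promoters the medians were 52.7% and 7 CpGs. The promoters not shown had 35.7, 47 and 48.3% GC with 1, 10 and 4 CpGs for Mef2c. Those of Sorl1 had 44 and 72.3% with 9 and 37, and that of Abca7 60.7% with 19. Mef2c was also read in every cell type, so the contrast between the promoters shown does not hold for all 6 genes. Both strands were searched for that E-box, the PU.1 site GAGGAAGT, the AP-1 site TGANTCA and a MEF2 box, which 0.974%, 3.2%, 7.81% and 3.69% of all promoters hold. The MEF2 box was searched in a loose form, 10 bases that start with CTA and end with TAG, whatever lies between. The RefSeq start of Cd33 lies inside the annotated span of the gene. The Picalm promoter holds the E-box at -192 and -2 from the start, and no searched motif is in the Cd2ap or Cd33 window. Of the other promoters searched, those of Sorl1 and Abca7 held none of the motifs, and 1 of 3 for Mef2c held an AP-1 site, at -137. A match of letters is a description and not a measured binding site.

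The question of where each gene is read was addressed by summing UMIs per cell type in every library. Gene positions are those of the GRCm38 annotation. Levels are CPM, a gene's UMIs scaled to the total UMIs of that type, given as the lowest, median and highest of the 6 libraries, and they compare types within a gene, not genes with each other. Microglia-like nuclei had the highest level of 5 genes (Picalm, Cd33, Abi3, Ptk2b and Mef2c), while Bin1 led in oligodendrocytes, Cd2ap in endothelium, Sorl1 in excitatory neurons, Ms4a6d in border macrophages and Abca7 in pericytes and smooth muscle. For 9 genes the leading type was above the next in 6 of 6 libraries, which gives p = 0.03125 in an exact two-sided paired permutation test, the smallest that 6 libraries allow. The exception was Abca7. Each pair of types was picked from these same levels, so the order is a description.

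**Figure D1:**
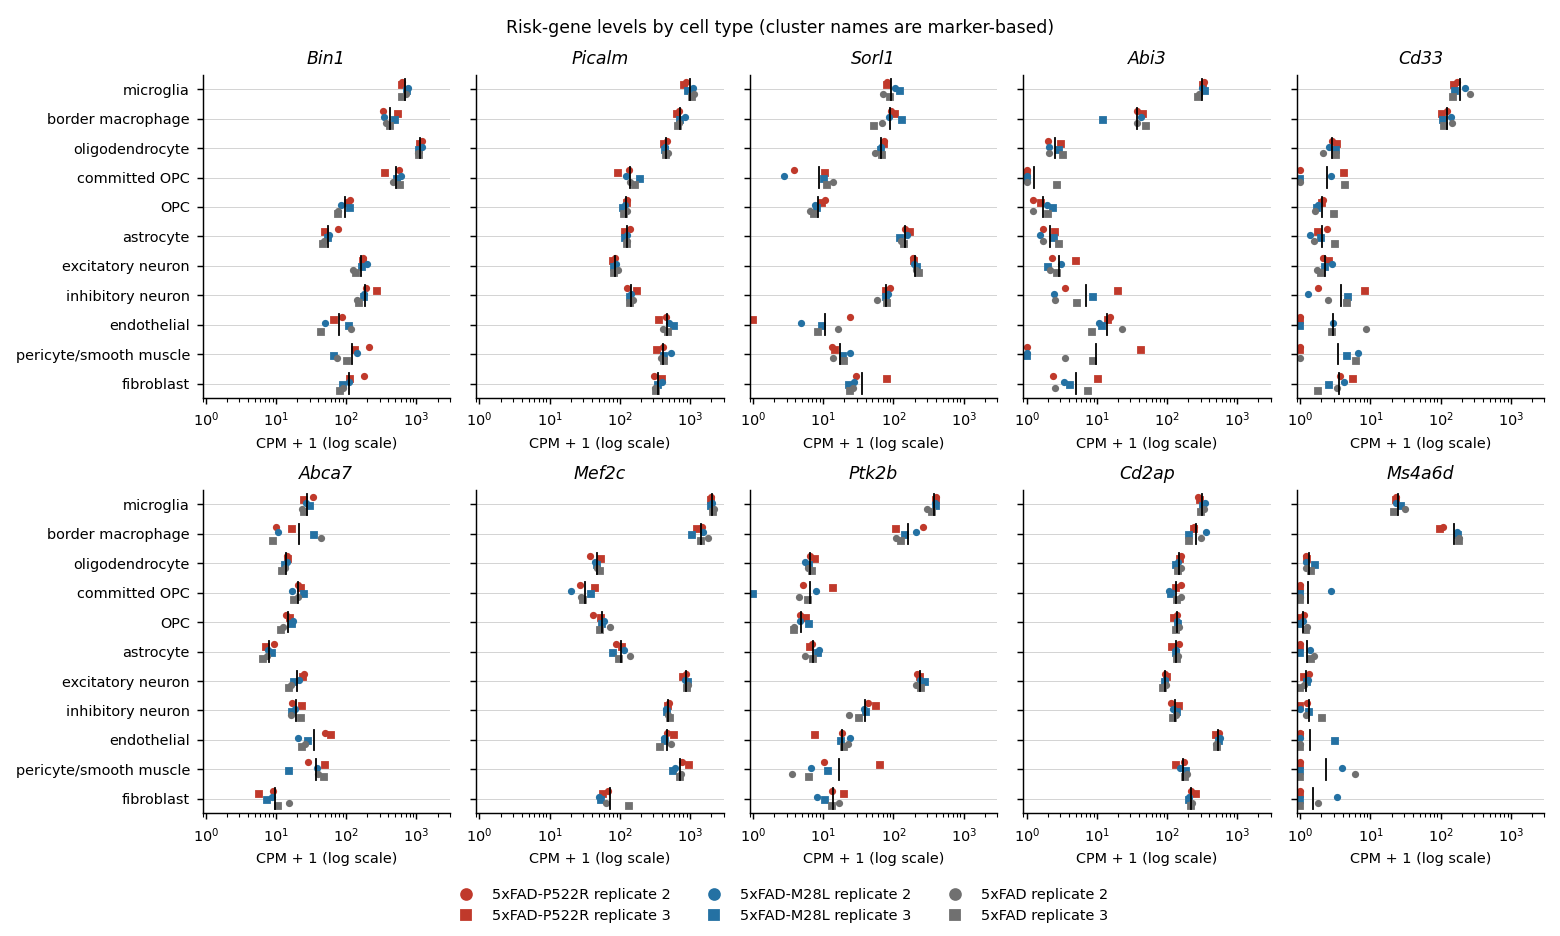
Level of each of the 10 genes (CPM) by cell type, with 1 point per library. Mef2c lies between 1986 and 2224 CPM in microglia-like nuclei and between 36.0 and 53.7 CPM in oligodendrocyte-like nuclei, while the Abca7 points of pericytes, endothelium and microglia overlap.

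Picalm (chr7:90130213-90213465, plus strand), an adaptor that recruits clathrin and sets the size of the coated bud, had 814, 1006 and 1120 CPM in microglia-like nuclei. Border macrophages came next with 654, 695 and 852 CPM, so the ranges overlapped although microglia were higher in every library (log2 difference 0.46 ± 0.18, SD, n = 6). Endothelial cells had 362, 468 and 591 CPM and oligodendrocytes 419.9, 452 and 483 CPM, which overlapped each other and the pericytes with smooth muscle (333, 413 and 527 CPM). Fibroblasts had a median of 340.2 CPM, and the other types, oligodendrocyte precursors (OPCs) among them, had medians of 83.5 CPM (excitatory neurons) to 141 CPM (inhibitory neurons).

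Bin1 (chr18:32377230-32435737, plus strand), whose product bends membranes during endocytosis, had 1058, 1108 and 1192 CPM in oligodendrocyte-like nuclei. Microglia-like nuclei followed with 624, 666 and 761 CPM, a range wholly below that of oligodendrocytes (0.73 ± 0.15 log2 between the types, SD, n = 6). Committed oligodendrocyte precursors had 358, 546 and 611 CPM and border macrophages 329, 391 and 537 CPM. The neuron-like types were lower again, at 140.1, 179.8 and 275 CPM in inhibitory and 124, 171 and 196 CPM in excitatory neurons, and the 2 ranges overlapped. In the other types medians ran from 52.0 CPM (astrocytes) to 116 CPM (pericytes and smooth muscle).

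Cd2ap (chr17:42792951-42876665, minus strand), a scaffold that ties membrane receptors to actin, was the endothelial member of the group. Its level was 489.8, 529 and 557 CPM in endothelial-like nuclei, against 276, 312 and 342 CPM in microglia-like nuclei, and these ranges did not overlap (0.75 ± 0.14 log2, SD, n = 6). Border macrophages (202, 238 and 358 CPM) overlapped microglia and also fibroblasts (205, 219 and 255 CPM), and oligodendrocytes had 132, 148 and 155 CPM. Medians of the other types ran from 93.7 CPM (excitatory neurons) to 174 CPM (pericytes and smooth muscle).

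Sorl1 (chr9:41964720-42124297, minus strand), the Vps10 sorting receptor, was highest in the few excitatory neuron-like nuclei, at 190.4, 199.5 and 228 CPM. Astrocytes followed with 123, 143 and 169 CPM, a range wholly below that of the neurons (0.52 ± 0.26 log2, SD, n = 6). Microglia (69.1, 83.8 and 124 CPM), border macrophages (52.7, 88.5 and 133 CPM), inhibitory neurons (58.2, 79.3 and 89.5 CPM) and oligodendrocytes (53.3, 66.7 and 72.6 CPM) had ranges that overlapped. Endothelial-like nuclei had 0, 8.003 and 23.2 CPM, and the other types had medians of 6.92 CPM (OPCs) to 25.9 CPM (fibroblasts).

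Abca7 (chr10:79996494-80015572, plus strand), a transporter that moves phospholipids across membranes, had no leading type beyond the spread. Pericytes and smooth muscle had 14.4, 37.7 and 48.6 CPM from 66 UMIs in all, endothelium 19.4, 26.3 and 60.3 CPM from 77 UMIs, and microglia 22.7, 25.2 and 33.2 CPM from 773 UMIs. The log2 difference between pericytes with smooth muscle and endothelium was 0.10 ± 0.87 (SD, n = 6), higher in 3 of 6 libraries (exact two-sided paired permutation p = 0.844). Oligodendrocytes had 11.1, 12.9 and 13.8 CPM, and the medians of the remaining types ran from 6.58 CPM (astrocytes) to 19.6 CPM (committed oligodendrocyte precursors).

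Cd33 (chr7:43524216-43544428, minus strand), a sialic acid-binding receptor that in humans restrains uptake by microglia, had 151, 165 and 258 CPM in microglia-like and 105, 116 and 144 CPM in border macrophage-like nuclei (0.59 ± 0.14 log2, SD, n = 6). These ranges did not overlap, and every other type had a median of at most 2.53 CPM. Ms4a6d (chr19:11586604-11604849, minus strand), a tetraspan protein of the myeloid cell surface, had the opposite order, with 96.9, 173 and 182 CPM in border macrophages (267 UMIs), against 20.5, 22.3 and 30.2 CPM in microglia (693 UMIs), ranges that did not overlap (2.58 ± 0.39 log2, SD, n = 6). Elsewhere its median was at most 0.234 CPM. Ms4a6d has close paralogs in Ms4a6b and Ms4a6c, and how reads that match several of them were treated is not given in the sources used here.

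Abi3 (chr11:95830074-95842476, minus strand), a subunit of the WAVE complex that starts branched actin, had the largest gap of the 10 genes between its leading type and the next. Its level was 279, 321 and 342 CPM in microglia-like nuclei, against 11.4, 38.9 and 48.6 CPM in border macrophages (3.19 ± 0.81 log2, SD, n = 6). Endothelial-like nuclei had 7.41, 12.1 and 21.6 CPM, and the other types had medians of 0 CPM (committed oligodendrocyte precursors) to 3.40 CPM (inhibitory neurons). In oligodendrocyte-like nuclei Abi3 had a median of 1.47, Cd33 of 1.99 and Ms4a6d of 0.232 CPM. Whether such counts come from free RNA was not tested.

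Ptk2b (chr14:66153257-66281052, minus strand) encodes Pyk2, a calcium-responsive kinase related to focal adhesion kinase. It had 303, 394 and 407 CPM in microglia-like and 207, 241 and 279.6 CPM in excitatory neuron-like nuclei, with no overlap (0.65 ± 0.16 log2, SD, n = 6). Border macrophages had 108, 135 and 265 CPM, overlapping the excitatory neurons. Inhibitory neurons had 22.2, 38.2 and 54.9 CPM, a range wholly below that of excitatory neurons, and oligodendrocytes 4.48, 5.35 and 6.68 CPM. The other types had medians of 3.68 CPM (OPCs) to 17.95 CPM (endothelium).

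Mef2c (chr13:83504034-83667080, plus strand), a transcription factor of muscle, neurons and myeloid cells, had 1986, 2028 and 2224 CPM in microglia-like nuclei, against 1069, 1460 and 1805 CPM in border macrophages (0.55 ± 0.22 log2, SD, n = 6). Excitatory neurons had 798, 883 and 947 CPM, pericytes and smooth muscle 574, 726 and 965 CPM, and inhibitory neurons 450.4, 486 and 517 CPM. The last range lay wholly below the one of excitatory neurons. Endothelial-like nuclei had 376, 453 and 589.9 CPM. Oligodendrocytes had 36.0, 46.3 and 53.7 CPM, within the 27.8 CPM (committed oligodendrocyte precursors) to 101 CPM (astrocytes) spanned by the medians of the other types.

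The genes whose levels most resembled each member over the 66 sums of library and type (11 types in 6 libraries, log2(CPM + 1), 12383 genes compared) split along the same types. Abi3 was closest to Naip5 (Pearson r = 0.96), an inflammasome receptor, and Cd33 to Themis2 (0.95) and the integrin Itgb2 (0.95). Ms4a6d was closest to the lectin Clec4a2 (0.97) and Lrrc25 (0.97), Mef2c to Pik3cd (0.90) and Cbfa2t3 (0.88), and Ptk2b to Dgkz (0.93) and Lyzl4 (0.92). Bin1 was closest to the sorting nexin Snx30 (0.93) and Rab40c (0.91), Picalm to Dennd6a and Kpna4 (0.93 each), and Cd2ap to Rps9 (0.93) and Bnip2 (0.92). Lower values were found for Sorl1, with Hivep3 (0.79) and Tsga10 (0.77), and for Abca7, with Vapb (0.69) and Scarb1 (0.68). The 66 sums share libraries and differ in depth, and the values are descriptions with no test.

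Within the microglia-like nuclei the disease-associated-like state was set against the homeostatic-like one, library by library. Of the 10 genes, 7 fell in the disease-associated-like state (Ms4a6d, Cd33, Sorl1, Bin1, Picalm, Cd2ap and Abi3), 1 rose (Ptk2b), and Abca7 and Mef2c did not pass the test. The largest falls were in the surface proteins Ms4a6d and Cd33, to under the homeostatic range in every library. This makes 8 of 10 genes called by edgeR's quasi-likelihood test at an adjusted p of 0.05, 7 by DESeq2, against 29.9% of the 11935 genes tested. The members' median log2 difference was -0.29, and that of all genes tested -0.01. The 10 genes were kept out of the genes used for clustering, but the states were drawn from other genes of the same nuclei, so these p-values are not independent of the choice of nuclei. Levels in the paragraphs on microglia are TMM-normalized CPM, and log2 differences are given with their standard error (SE) and a p adjusted by Benjamini-Hochberg over all genes of the comparison.

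Cd33 had 98.3, 104 and 123 CPM (lowest, median and highest of 6 libraries) in disease-associated-like nuclei, against 199.3, 252 and 303 CPM in homeostatic-like nuclei. The states did not overlap, and Cd33 was 2.30-fold lower (log2 -1.20, SE 0.09, edgeR adjusted p = 3.88e-15). Ms4a6d had 8.72, 13.4 and 15.8 CPM (102 UMIs in all libraries together), against 23.9, 33.4 and 37.1 CPM (353 UMIs), again without overlap and 2.45-fold lower (log2 -1.29, SE 0.18, edgeR adjusted p = 9.06e-08). Both were lower in 6 of 6 libraries.

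Among the endocytic and sorting genes, Bin1 had 465, 476 and 609.9 CPM in disease-associated-like nuclei, against 757, 844 and 855 CPM in homeostatic-like nuclei, with no overlap (log2 -0.72, SE 0.06, edgeR adjusted p = 2.11e-12). Sorl1 had 50.2, 59.1 and 86.7 CPM, against 67.5, 107 and 134 CPM (log2 -0.78, SE 0.10, edgeR adjusted p = 4.63e-08). Picalm had 741, 814 and 1021 CPM, against 865, 1118 and 1333 CPM (log2 -0.34, SE 0.07, edgeR adjusted p = 7.76e-05). Bin1, Sorl1 and Picalm were lower in 6 of 6 libraries, while the ranges of Sorl1 and Picalm overlapped between libraries. Cd2ap had 256, 264 and 329 CPM, against 292, 331 and 359.7 CPM, and was lower in 5 of 6 libraries (log2 -0.24, SE 0.07, edgeR adjusted p = 0.00546).

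Ptk2b was the member that rose, with 364, 443 and 492 CPM in disease-associated-like nuclei, against 271, 349 and 379.5 CPM in homeostatic-like nuclei, higher in 6 of 6 libraries (log2 0.32, SE 0.07, edgeR adjusted p = 1.23e-04). Abi3 fell in 5 of 6 libraries, with 255, 297 and 342 CPM, against 283, 329.5 and 365 CPM (log2 -0.18, SE 0.07, edgeR adjusted p = 0.0447). That call held in 7 of 15 settings, with adjusted p from 0.0155 to 0.212, and was lost without 5xFAD-P522R replicate 2 (0.117), without 5xFAD-P522R replicate 3 (0.122) and without 5xFAD replicate 3 (0.212). Mef2c had 1919, 2051 and 2425 CPM, against 1797, 1979 and 2153 CPM (log2 0.09, SE 0.06, edgeR adjusted p = 0.237), and Abca7 had 17.4, 29.9 and 34.7 CPM, against 18.2, 26.4 and 33.5 CPM (log2 0.08, SE 0.16, edgeR adjusted p = 0.760). Mef2c and Abca7 were higher in 4 and 3 of 6 libraries. Mef2c passed with called doublets kept (0.16, adjusted p = 0.0104), with the 10 genes kept for clustering (0.15, 0.0194) and at a finer microglial resolution (0.14, 0.0329), with adjusted p up to 0.5199 over settings. Without 5xFAD replicate 2 the same comparison called 8 genes, with Bin1 at -0.72, Cd33 at -1.16 and Ptk2b at 0.31 (log2).

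**Figure D2:**
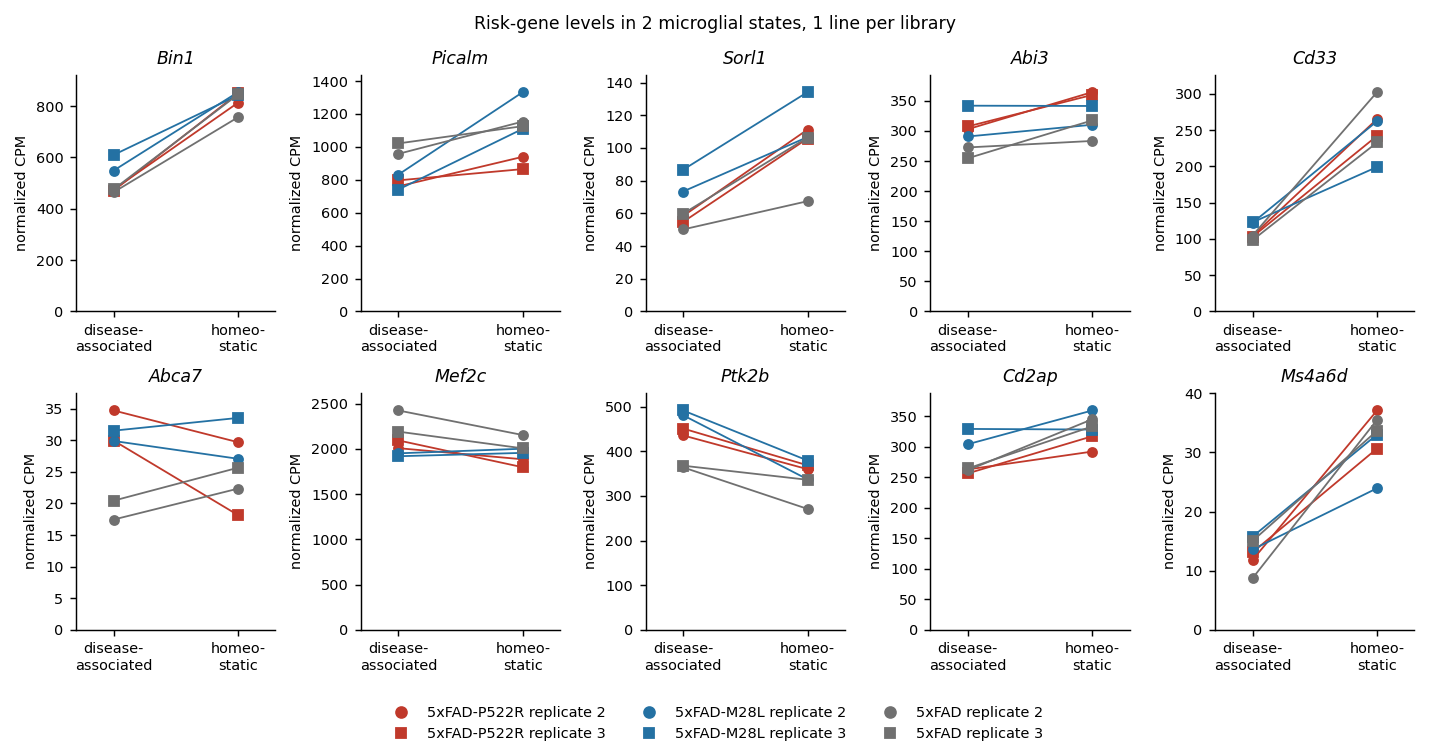
TMM-normalized CPM of the 10 genes in disease-associated-like and homeostatic-like nuclei, with a line joining the 2 states of each library. The lines of Cd33, Ms4a6d and Bin1 all run between ranges that do not overlap, and Ptk2b is higher in the disease-associated-like state in 6 of 6 libraries.

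Families around these genes were counted between the same states, by the same edgeR test and threshold, and are read against the 29.9% of all genes called. The shares called among clathrin partners, WAVE complex genes and ABCA transporters were near that of all genes. In the Mef2 family, Mef2a fell, with a median of 1397 CPM in disease-associated-like nuclei, against 2191 CPM in homeostatic-like nuclei (log2 -0.67), while Mef2d rose, at 261 against 160.1 CPM (0.65), leaving 1 of 3 in each direction (median -0.21). In the Ms4a family 3 of 15 genes were measured well enough: Ms4a6b, the paralog of Ms4a6d, fell to 48 UMIs, against 530 (log2 -2.88), and Ms4a7, a gene also of border macrophages, rose to 69 UMIs, against 2, too few for a fold (median of the family 0.09). Among Siglecs and the inhibitory phosphatases that act with them, 3 of 8 rose and 4 fell (median -0.16). Those that fell include Inpp5d (2179 against 2897 CPM, -0.41), Siglece (2 UMIs against 104) and Siglech, itself a marker used to name the homeostatic state.

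Of 26 clathrin partners, 3 rose and 5 fell, with a median of -0.12. Hip1, which links clathrin coats to actin, had a median of 186 CPM in disease-associated-like nuclei, against 50.9 CPM in homeostatic-like nuclei (log2 1.85), and the scaffold Itsn1 rose as well (1.19), while the adaptor Epn2 fell (-0.74). Among 16 retromer and Vps10 genes, 4 rose and 3 fell (median 0.05), and Sort1, a receptor of the family of Sorl1, fell to 132 CPM, against 238 CPM (-0.95), with Snx5 lower (-0.40) and Gga2 higher (1.20). Of 16 WAVE complex genes around Abi3, 4 passed edgeR's test, and these fell, with Wasf2 (-0.52), Nckap1l (-0.34) and Actr2 (-0.23) among them (median -0.17).

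Around Ptk2b, 3 of 8 focal adhesion genes rose and 4 fell (median -0.09). The kinase Fyn had 148 CPM in disease-associated-like nuclei, against 47.4 CPM in homeostatic-like nuclei (log2 1.62), Nedd9 was also higher (1.55), and the scaffold Cass4 fell to 31 UMIs, against 413 (-3.16). Of 9 ABCA transporters, 3 fell (median of the list -0.09), namely Abca9 (-1.13), Abca13 (-0.99) and Abca1 (-0.75), which loads cholesterol onto apolipoproteins. Among 38 measured genes of 45 other Alzheimer loci, 10 rose and 12 fell (median -0.03), with Plekha1 at 372 against 170.4 CPM (1.12), the transcription factor Maf at 239 against 656 CPM (-1.43) and the protease Ctsb, a marker used to name the state, at 402 against 140.3 CPM (1.47). Sort1, Inpp5d, Abca1 and Cass4 stand in 2 of these lists.

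Transcripts of other cells also differed between these states. Of 10 abundant oligodendrocyte transcripts 6 were lower and 1, Mbp, higher in disease-associated-like nuclei. The astrocyte list had 2 lower (Cst3 and Slc1a3) and 1 higher, Apoe (1.32), which microglia make as well. Of 10 neuron transcripts 3 were lower, and of 9 mitochondrial transcripts 1. Whether microglia also make others of these transcripts, and their part in the differences of the 10 genes, were not tested.

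In the interferon-like state, set against the homeostatic-like one, Bin1, Picalm and Cd33 fell, 3 of 10 genes against 11.7% of 9663 genes tested. Bin1 had 585, 741 and 839.5 CPM in interferon-like nuclei, against 779.5, 843 and 859 CPM in homeostatic-like nuclei (log2 -0.22, SE 0.07, edgeR adjusted p = 0.0275, lower in 5 of 6 libraries). Picalm differed by -0.23 (SE 0.07, edgeR adjusted p = 0.0171, 5 of 6) and Cd33 by -0.29 (SE 0.10, edgeR adjusted p = 0.0409, 6 of 6). DESeq2 and a fit without the library as a block made none of these calls, and each was lost without some library. Bin1 did not pass without 5xFAD replicate 3 (-0.16, adjusted p = 0.287) or 5xFAD-P522R replicate 3 (-0.17, 0.247), and Picalm without 5xFAD-M28L replicate 2 (-0.13, 0.323) or replicate 3 (-0.20, 0.121). Cd33 did not pass without 5xFAD replicate 2 (-0.27, 0.1105), 5xFAD replicate 3 (-0.25, 0.168), 5xFAD-P522R replicate 2 (-0.25, 0.128) or 5xFAD-P522R replicate 3 (-0.27, 0.134). Over all settings adjusted p ran from 6.54e-04 to 0.287 for Bin1, from 1.23e-04 to 0.323 for Picalm and from 0.00135 to 0.168 for Cd33.

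The central comparison of the design, between the Plcg2 variants and 5xFAD alone, was made on the sums over all microglia-like nuclei of a library (879 to 1724 nuclei). None of the 10 genes passed edgeR's threshold in any of the 3 contrasts. In 5xFAD-P522R against 5xFAD-M28L, 0 of 10 were called, against 0.00734% of 13629 genes, in 5xFAD-P522R against 5xFAD 0 of 10, against 0.022%, and in 5xFAD-M28L against 5xFAD 0 of 10, against 0.00734%. DESeq2 also called 0 of the 10 in each, and at an unadjusted p under 0.05 edgeR had 4, 3 and 3 of them, against 1142, 1290 and 869 of all 13629 genes.

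Picalm had 851 and 814.5 CPM in 5xFAD-P522R, 1114 and 970.3 CPM in 5xFAD-M28L, and 1122 and 1067 CPM in 5xFAD. Both 5xFAD-P522R libraries lay below all 4 others, at a log2 difference of -0.32 from 5xFAD-M28L (SE 0.09, edgeR adjusted p = 0.402) and of -0.39 from 5xFAD (SE 0.09, edgeR adjusted p = 0.473). Without 5xFAD replicate 2 the difference from 5xFAD was -0.36 (adjusted p = 0.316). With the replicate number as a block the difference from 5xFAD passed (adjusted p = 0.0468). Over the settings tried adjusted p ran from 0.0222 to 0.956 for the contrast with 5xFAD-M28L and from 0.00175 to 0.983 for that with 5xFAD.

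Bin1 had 613.5 and 625 CPM in 5xFAD-P522R, 768 and 757 CPM in 5xFAD-M28L, and 709 and 622 CPM in 5xFAD. It was lower in 5xFAD-P522R than in 5xFAD-M28L by 0.30 on the log2 scale without passing the test (log2 -0.30, SE 0.09, edgeR adjusted p = 0.413, from 0.024 to 0.971 over settings). Cd2ap had 271 and 291 CPM in 5xFAD-P522R, 345 and 332.5 CPM in 5xFAD-M28L, and 339 and 299.5 CPM in 5xFAD, and was likewise lower in 5xFAD-P522R than in 5xFAD-M28L (-0.27, SE 0.09, edgeR adjusted p = 0.4998).

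Sorl1 had 78.1 and 80.5 CPM in 5xFAD-P522R, 106 and 128 CPM in 5xFAD-M28L, and 69.2 and 86.8 CPM in 5xFAD. Both 5xFAD-M28L libraries were above all others, with log2 differences of -0.56 for 5xFAD-P522R against 5xFAD-M28L (SE 0.14, edgeR adjusted p = 0.327) and 0.57 for 5xFAD-M28L against 5xFAD (SE 0.14, edgeR adjusted p = 0.768). Without 5xFAD replicate 2 the second was 0.43 (adjusted p = 0.249).

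Ptk2b was lowest in 5xFAD, with 391.6 and 403 CPM in 5xFAD-P522R, 393 and 418 CPM in 5xFAD-M28L, and 303 and 347 CPM in 5xFAD. The log2 difference was 0.29 for 5xFAD-P522R (SE 0.09, edgeR adjusted p = 0.487) and 0.32 for 5xFAD-M28L (SE 0.09, edgeR adjusted p = 0.768), each against 5xFAD, and 0.20 and 0.23 without 5xFAD replicate 2. Abi3 had the same order, with 325.5 and 323.5 CPM in 5xFAD-P522R, 321 and 352 CPM in 5xFAD-M28L, and 283.5 and 278 CPM in 5xFAD (0.21, SE 0.09, edgeR adjusted p = 0.507, and 0.26, SE 0.09, edgeR adjusted p = 0.768). Removal of that library left Abi3 at 0.22 and 0.28.

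The remaining genes had an unadjusted p above 0.05 in each contrast. Mef2c had 1984 and 1986 CPM in 5xFAD-P522R, 2059 and 2067 CPM in 5xFAD-M28L, and 2228 and 2149 CPM in 5xFAD, an order with no overlap but a log2 difference of only -0.14 for 5xFAD-P522R against 5xFAD, and -0.11 without 5xFAD replicate 2. Cd33 had 168 and 156 CPM in 5xFAD-P522R, 220.4 and 163 CPM in 5xFAD-M28L, and 258 and 150.4 CPM in 5xFAD, so its groups overlapped. For 5xFAD-P522R against 5xFAD the Cd33 value was -0.32, and 0.11 without 5xFAD replicate 2. Over the 6 libraries Ms4a6d ranged from 20.4 to 30.3 CPM and Abca7 from 22.7 to 32.6 CPM.

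**Figure D3:**
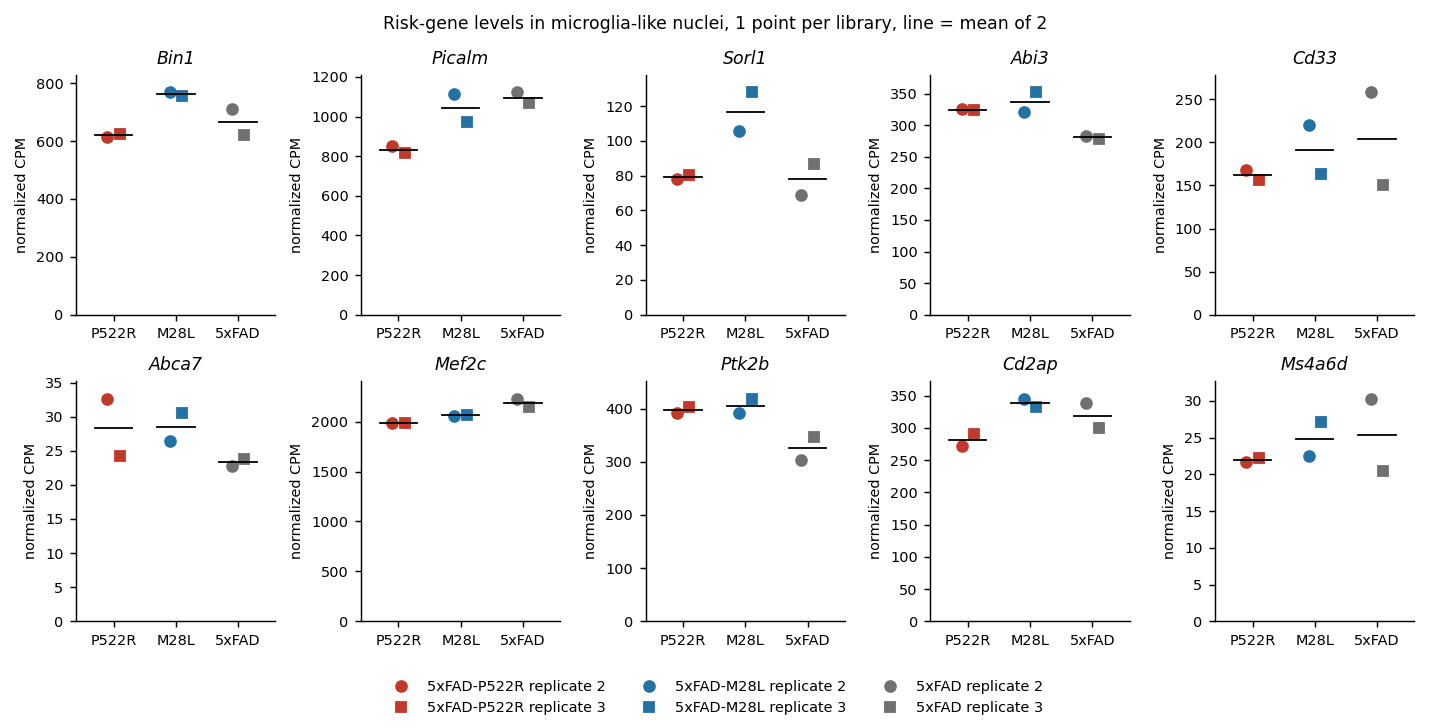
TMM-normalized CPM of the 10 genes in microglia-like nuclei, with 1 point per library, in 5xFAD-P522R, 5xFAD-M28L and 5xFAD. Picalm in 5xFAD-P522R lies at 851 and 814.5, below the 4 other libraries, and Sorl1 in 5xFAD-M28L at 106 and 128, above them.

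Some calls appeared when fewer libraries or another model were used. The share of all genes called in those fits is not given here, so these calls are not read as particular to the members. Between the variants, Bin1, Picalm and Sorl1 passed edgeR's threshold in a fit of only those 4 libraries (adjusted p = 0.030, 0.0483 and 0.0212), and also without 5xFAD replicate 2 (0.024, 0.0312 and 0.0198) or without 5xFAD replicate 3 (0.027, 0.0412 and 0.0201). Sorl1 also passed with the replicate number as a block (0.0436), and its range over all settings was 0.00404 to 0.952. For 5xFAD-P522R against 5xFAD, leaving out 5xFAD replicate 3 called Picalm (0.0134), Cd33 (0.0157) and Ptk2b (0.0185), each at an adjusted p that over all settings reached 0.983, 0.9999 and 0.996. For 5xFAD-M28L against 5xFAD the same omission called Sorl1 (0.0421), with a range of 0.00397 to 0.9999. Without replicate 3 the 5xFAD group is replicate 2 alone, the library with few female disease-associated-like nuclei, and its spread is taken from the other groups.

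Both 5xFAD-P522R libraries had the highest female share, the most neuron transcripts and the fewest astrocyte transcripts. In these, 5xFAD-M28L and 5xFAD overlapped. For oligodendrocyte and mitochondrial transcripts 5xFAD-M28L overlapped both other groups. Summed over 10 astrocyte transcripts, microglia-like nuclei had 918 and 848 CPM in 5xFAD-P522R, 1132 and 1138 CPM in 5xFAD-M28L, and 1210.0 and 1112 CPM in 5xFAD. In that list 1 gene was called lower in 5xFAD-P522R than in 5xFAD-M28L and 2 lower than in 5xFAD, while no gene passed edgeR in the lists of pathway partners. The 10 oligodendrocyte transcripts summed to 1362 and 1637, 1291 and 1568, and 1113 and 1304 CPM in the same groups, the 10 neuron transcripts to 363 to 453 CPM, the 9 border macrophage markers to 192 to 223 CPM and the 8 T cell markers to 5.64 to 9.16 CPM. Single genes weigh heavily in these sums, with medians in homeostatic-like nuclei of 360 CPM for Slc1a3 and 280 CPM for Cst3 (astrocyte list). Pde4b of the oligodendrocyte list had 509 CPM there. Whether microglia make such transcripts themselves was not tested. In oligodendrocyte-like nuclei the 10 astrocyte transcripts were also lowest in 5xFAD-P522R. They summed to 532 and 506 CPM there, 748 and 660 CPM in 5xFAD-M28L, and 815 and 747 CPM in 5xFAD. The 13 mitochondrial transcripts summed to 129 and 121 CPM in 5xFAD-P522R, 166 and 128 CPM in 5xFAD-M28L, and 152 and 185 CPM in 5xFAD. The part of the female share and of these transcripts in the levels of the 10 genes was not tested.

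Fitted to nuclei of a single sex, no gene of the 10 was called by edgeR, with lowest adjusted p of 0.343 in female and 0.147 in male nuclei, and the signs of some differences were not shared. For Picalm the log2 difference of 5xFAD-P522R from 5xFAD-M28L was 0.12 in female and -0.46 in male nuclei, and that from 5xFAD was -0.49 and -0.20. For Ptk2b the difference from 5xFAD was 0.51 in female and -0.04 in male nuclei of 5xFAD-P522R, and 0.64 and 0.02 in those of 5xFAD-M28L. Sorl1 kept its direction for 5xFAD-M28L against 5xFAD, with 0.75 in female and 0.68 in male nuclei. Between the variants it had 69.8 and 68.3 CPM in female nuclei of 5xFAD-P522R, against 140.3 and 124.2 CPM in those of 5xFAD-M28L. The male values overlapped, at 102.2 and 98.4 against 88.6 and 138.6 CPM.

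Within single states the shares of the states in a library no longer enter, and 0 of 10 genes were called in any contrast by edgeR or DESeq2. The sexes still enter. Sexed disease-associated-like nuclei numbered 4 female and 98 male in 5xFAD replicate 2, and 343 and 132 in replicate 3. In 5xFAD-P522R they numbered 234 and 42, and 347 and 79, and in 5xFAD-M28L 37 and 27, and 101 and 21. With unsexed nuclei, 5xFAD-M28L had 80 and 146 in that state. The part of sex in the levels within states was not tested. Among all genes, edgeR called 0.0525% (5xFAD-P522R against 5xFAD-M28L), 0.0612% (5xFAD-P522R against 5xFAD) and 0.0175% (5xFAD-M28L against 5xFAD) in homeostatic-like nuclei. The shares were 0.37%, 0.0617% and 0.401% in disease-associated-like nuclei, and 0.41%, 0.366% and 0.395% in interferon-like nuclei, in the same order. At an unadjusted p under 0.05 stood 1, 4 and 1 of the 10 genes in homeostatic-like, 3, 3 and 7 in disease-associated-like, and 2, 2 and 3 in interferon-like nuclei. Of all genes, 632, 1075 and 722 of 11430 stood there in homeostatic-like, 885, 555 and 962 of 9722 in disease-associated-like, and 461, 500 and 582 of 6830 in interferon-like nuclei.

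Picalm in homeostatic-like nuclei had 924 and 856 CPM in 5xFAD-P522R, 1330.0 and 1100.0 CPM in 5xFAD-M28L, and 1169 and 1125 CPM in 5xFAD. The 5xFAD-P522R libraries were again the lowest, at -0.45 from 5xFAD-M28L (SE 0.09, edgeR adjusted p = 0.169) and -0.37 from 5xFAD (SE 0.09, edgeR adjusted p = 0.283, and -0.34 without 5xFAD replicate 2). The first of these passed without 5xFAD replicate 2 (adjusted p = 0.0354), without 5xFAD replicate 3 (0.0466) and without 5xFAD-M28L replicate 3 (0.0266), and over all settings adjusted p ran from 9.26e-05 to 0.974. With the replicate number as a block both passed, at an adjusted p of 8.87e-04 for 5xFAD-M28L and 0.00378 for 5xFAD, the second in a range of 0.00169 to 0.834. In disease-associated-like nuclei the order changed, with 773 and 803.5 CPM in 5xFAD-P522R, 860.5 and 746 CPM in 5xFAD-M28L, and 979.5 and 1036 CPM in 5xFAD. There both variants were below 5xFAD, by a log2 difference of -0.36 for 5xFAD-P522R (SE 0.11, edgeR adjusted p = 0.4496) and -0.34 for 5xFAD-M28L (SE 0.12, edgeR adjusted p = 0.272), and by -0.40 and -0.39 without 5xFAD replicate 2.

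Ptk2b in disease-associated-like nuclei had 443 and 455 CPM in 5xFAD-P522R, 498 and 495.5 CPM in 5xFAD-M28L, and 373 and 373 CPM in 5xFAD, so the groups did not overlap. The difference of 5xFAD-M28L from 5xFAD was 0.41 (SE 0.12, edgeR adjusted p = 0.157), and 0.40 without 5xFAD replicate 2. Bin1 in the same state had 483 and 475 CPM in 5xFAD-P522R, 568 and 615 CPM in 5xFAD-M28L, and 475 and 483 CPM in 5xFAD (0.31 for 5xFAD-M28L against 5xFAD, and 0.29 without 5xFAD replicate 2). Sorl1 had 59.4 and 55.2 CPM in 5xFAD-P522R, 75.9 and 87.3 CPM in 5xFAD-M28L, and 51.3 and 60.6 CPM in 5xFAD (0.51, and 0.44 without that library).

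Sorl1 in interferon-like nuclei had 76.9 and 81.5 CPM in 5xFAD-P522R, 135 and 197 CPM in 5xFAD-M28L, and 106 and 139.6 CPM in 5xFAD. These levels rest on 272 UMIs in all libraries together, with 46 and 93 such nuclei in 5xFAD-P522R. The log2 difference between the variants was -1.05 (SE 0.30, edgeR adjusted p = 0.1004). It passed without 5xFAD-M28L replicate 2 (0.0454), and over the settings tried adjusted p reached 1.

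**Figure D4:**
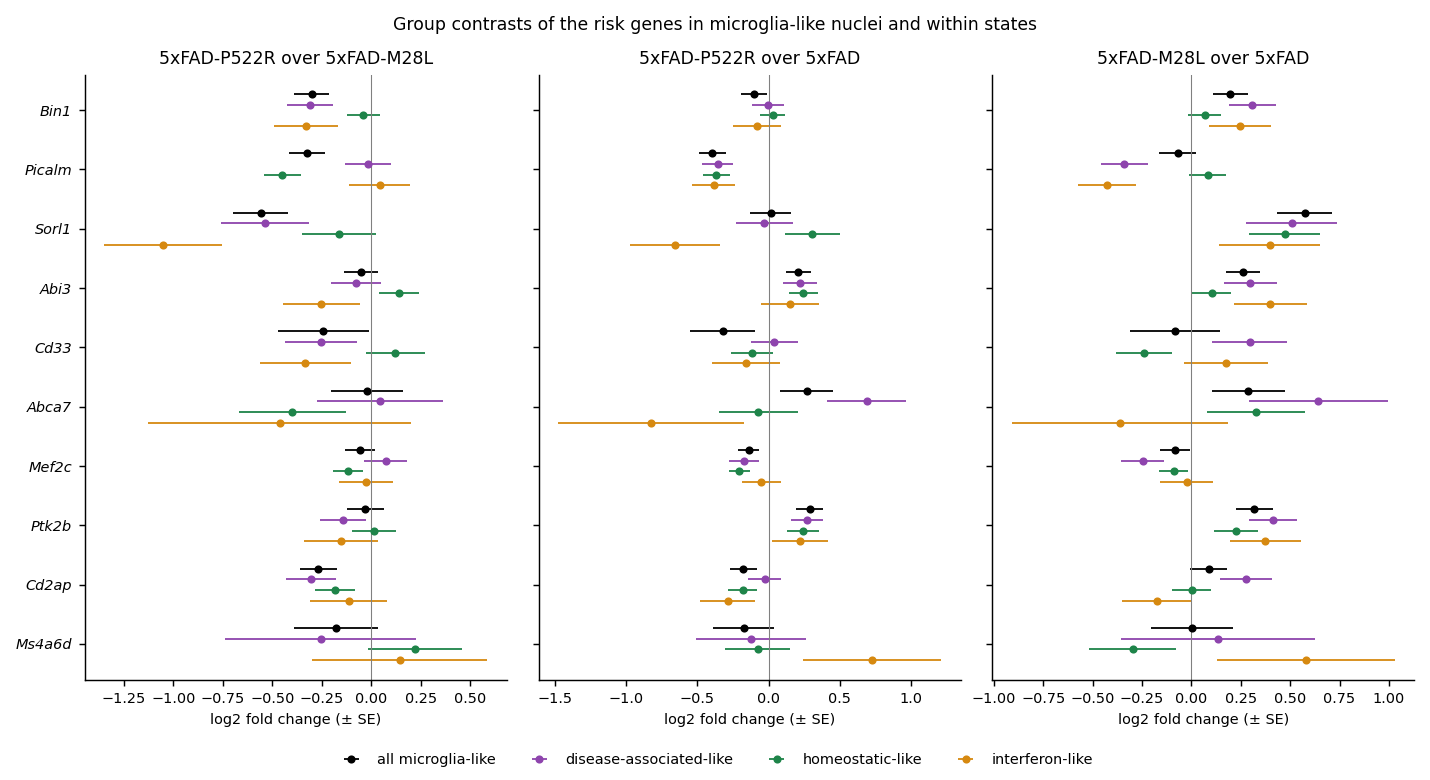
Log2 differences of the 10 genes between groups, with standard errors, in all microglia-like nuclei and in each state. None of the values passed edgeR's adjusted threshold, and Picalm lies below 0 in all 4 sets of nuclei for 5xFAD-P522R against 5xFAD.

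Whether the step between the states itself differed between groups was tested as an interaction, which was not planned beforehand. None of the 10 genes was called, for the disease-associated-like state against 0.235% (5xFAD-P522R against 5xFAD-M28L), 0.0168% (5xFAD-P522R against 5xFAD) and 0.276% (5xFAD-M28L against 5xFAD) of all genes, and for the interferon-like state against 0.186%, 0.0517% and 0.114%. At an unadjusted p under 0.05 stood 3, 1 and 2 of the genes for the disease-associated-like state and 2, 1 and 1 for the interferon-like state, in the same order, against 908, 451 and 847 of all 11935 genes and 606, 485 and 514 of all 9663 genes. The lowest adjusted p for the disease-associated-like state was that of Picalm, whose level in that state relative to the homeostatic-like one was less reduced in 5xFAD-P522R than in 5xFAD-M28L (log2 difference of the differences 0.42, SE 0.13, edgeR adjusted p = 0.184) and more reduced in 5xFAD-M28L than in 5xFAD (-0.43, SE 0.13, edgeR adjusted p = 0.183, and -0.47 without 5xFAD replicate 2).

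Female and male microglia-like nuclei of the same libraries were compared next. None of the 10 genes was called by edgeR or DESeq2, against 0.0595% of 11760 genes, and 1, Picalm, had an unadjusted p under 0.05, as had 668 of all genes. Picalm had 794 and 782.5 CPM (5xFAD-P522R), 665 and 780.3 CPM (5xFAD-M28L) and 1150.0 and 1067 CPM (5xFAD) in female nuclei, against 1033, 856, 1439, 1158, 1137 and 1037 CPM in male nuclei of the same libraries. It was lower in female nuclei of the 4 variant libraries and higher in those of 5xFAD (log2 -0.35 over all 6, SE 0.13, edgeR adjusted p = 0.838). Without 5xFAD replicate 2, whose female nuclei hold few in the disease-associated-like state, the value was -0.42 and passed (adjusted p = 0.0259, in a range of 0.0208 to 1 over settings).

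The difference between sexes was itself compared between groups, in a test that was not planned beforehand. Picalm was the 1 gene of the 10 that passed, against 0.859% of all genes, for 5xFAD-M28L against 5xFAD (log2 difference of the differences -0.87, SE 0.18, edgeR adjusted p = 0.0428). The value lay between -1.14 and -0.60 when any library was left out, and the call was lost without 5xFAD-M28L replicate 2 (-0.60, adjusted p = 0.577), 5xFAD-M28L replicate 3 (-1.14, 0.101), 5xFAD-P522R replicate 2 (-0.87, 0.129) or 5xFAD-P522R replicate 3 (-0.87, 0.1298). It was kept without 5xFAD replicate 2 (-0.87, 0.0036) and without 5xFAD replicate 3 (-0.87, 5.32e-04). For 5xFAD-P522R against 5xFAD-M28L and against 5xFAD, edgeR called 0% of all genes, and 2 and 1 of the 10 had an unadjusted p under 0.05, against 607 and 999 of all genes.

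Ptk2b had 421, 430.3, 465, 466, 244 and 351 CPM in female nuclei (5xFAD-P522R, 5xFAD-M28L and 5xFAD, replicates 2 and 3), against 327, 353, 343, 366, 359.8 and 343 CPM in male nuclei. It was higher in female nuclei of all libraries but 5xFAD replicate 2 (log2 0.16, edgeR adjusted p = 0.8805), and without that library the value was 0.29 (adjusted p = 0.0376, the lowest of its settings, which reached 1). Its difference between 5xFAD-M28L and 5xFAD was 0.64 (SE 0.20, edgeR adjusted p = 0.149, from 3.22e-04 to 0.648 over settings), and that between 5xFAD-P522R and 5xFAD 0.57 (SE 0.20, edgeR adjusted p = 0.426, from 0.00146 to 0.948). Without 5xFAD replicate 3, which leaves replicate 2 as the only 5xFAD library and takes its spread from the other groups, these were 0.93 and 0.865 and passed.

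**Figure D5:**
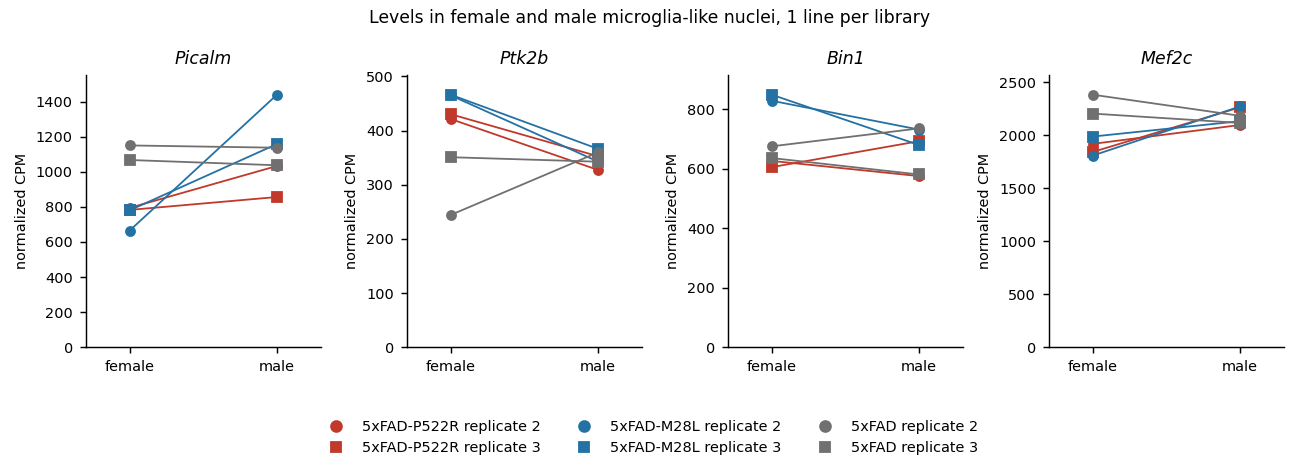
TMM-normalized CPM of Picalm, Ptk2b, Bin1 and Mef2c in female and male microglia-like nuclei, with a line joining the sexes of each library. Picalm is lower in female than in male nuclei in the 4 variant libraries, and the female value of Ptk2b in 5xFAD replicate 2 lies at 244.

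Outside microglia, 219 tests of the 10 genes in 10 cell types gave 0 calls by edgeR and 1 by DESeq2, with 23 at an unadjusted p under 0.05, and a lowest edgeR adjusted p of 0.317. Of all genes, the share under 0.05 differed by type and contrast. It was lowest in fibroblasts (332 of 10420) and highest in oligodendrocytes (1968 of 15454), both for 5xFAD-M28L against 5xFAD. The 23 are not read as particular to the 10 genes. The lowest edgeR adjusted p belonged to Bin1 in excitatory neuron-like nuclei, which had 169 and 174 CPM in 5xFAD-P522R, 194 and 171 CPM in 5xFAD-M28L, and 127 and 142 CPM in 5xFAD. There the groups of both variants lay above 5xFAD, by 0.45 for 5xFAD-M28L (SE 0.09, edgeR adjusted p = 0.317) and 0.35 for 5xFAD-P522R (SE 0.09, edgeR adjusted p = 0.414). DESeq2 called the value of 5xFAD-M28L (adjusted p = 0.0186), as did edgeR with the replicate number as a block (0.0265, with a range of 2.73e-04 to 0.617 over settings). Among all genes tested in these nuclei, the main edgeR fit called 0%, and the share called by DESeq2 is not given here. In other types edgeR called 0.0129% (5xFAD-P522R against 5xFAD-M28L) and 0.0453% (5xFAD-P522R against 5xFAD) of all genes in oligodendrocytes and 0.0216% (5xFAD-P522R against 5xFAD) in astrocytes. The shares were 0.0247% in endothelium for either variant against 5xFAD, 0.0162% in pericytes and smooth muscle for 5xFAD-P522R against 5xFAD-M28L and for 5xFAD-M28L against 5xFAD, and 0.0811% there for 5xFAD-P522R against 5xFAD.

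Bin1 in OPC-like nuclei had 110.1 and 105 CPM in 5xFAD-P522R, 85.9 and 112 CPM in 5xFAD-M28L, and 77.2 and 76.0 CPM in 5xFAD (log2 0.49 for 5xFAD-P522R against 5xFAD, edgeR adjusted p = 0.373). With the replicate number as a block that value passed (adjusted p = 8.14e-04, in a range of 1.55e-05 to 0.854 over settings). In inhibitory neuron-like nuclei Bin1 had 191 and 269.8 CPM in 5xFAD-P522R, 178 and 182 CPM in 5xFAD-M28L, and 143 and 152 CPM in 5xFAD. That type pooled unlike clusters, with median UMIs from 5296 (Igfbpl1 and St8sia2 among the leading genes) to 13760 (Vip and Lhx6). Whether their mix differed between libraries was not tested. In oligodendrocytes, the leading type of Bin1, the levels were 1171 and 1135 CPM in 5xFAD-P522R, 1184 and 1121 CPM in 5xFAD-M28L, and 1045 and 1078 CPM in 5xFAD (0.12 for 5xFAD-P522R against 5xFAD, edgeR adjusted p = 0.475).

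Other genes in their leading types gave differences that did not pass. Ms4a6d in border macrophage-like nuclei had 112 and 109 CPM in 5xFAD-P522R, 189 and 197 CPM in 5xFAD-M28L, and 200.3 and 207 CPM in 5xFAD. The 5xFAD-P522R libraries were lowest, at -0.88 from 5xFAD (SE 0.24, edgeR adjusted p = 0.992) and -0.81 from 5xFAD-M28L (SE 0.24, edgeR adjusted p = 0.998), on 267 UMIs in all libraries together. Cd2ap in endothelial-like nuclei had 566 and 512 CPM in 5xFAD-P522R, 593 and 577 CPM in 5xFAD-M28L, and 511 and 553 CPM in 5xFAD, so the groups of 5xFAD-P522R and 5xFAD overlapped. Sorl1 in excitatory neuron-like nuclei had 186 and 191 CPM in 5xFAD-P522R, 189.9 and 222 CPM in 5xFAD-M28L, and 210.2 and 233 CPM in 5xFAD (-0.23 for 5xFAD-P522R against 5xFAD, edgeR adjusted p = 0.479). Ptk2b in inhibitory neuron-like nuclei had 43.2 and 53.7 CPM in 5xFAD-P522R, 36.4 and 40.1 CPM in 5xFAD-M28L, and 22.7 and 31.7 CPM in 5xFAD, with both variants above 5xFAD (0.85 for 5xFAD-P522R against 5xFAD, edgeR adjusted p = 0.471). The part of the mix of inhibitory clusters in these levels was not tested.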

How the data were processed

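Nuclei were sorted (50000 per sample) and loaded to target 10000 per library, 5000 male and 5000 female, per the labels. The authors deposited raw UMI counts per gene and nucleus, not normalized, as 1 matrix per library. Cell Ranger 6.1.2 and the build mm10 are named, per the submitters' processing notes. Per the file headers, 5xFAD-P522R replicate 3 was made with version 5.0.1 and the 5 remaining libraries with 6.1.2. Whether intronic reads were counted is not given in the sources used here. The smallest barcode totals were 500 to 502 UMIs, so barcodes with fewer are not in the deposited counts.

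Nuclei passed (62651 of 62687) with 500 or more UMIs, 300 or more genes and no more than 5% of UMIs from mitochondria. Doublets were called with Scrublet in scanpy 1.11.5 (expected rate 0.08). Its automatic threshold marked under 0.5% in 2 libraries, so the median of the other 4 (0.3109) was used throughout. Clustering used 2000 variable genes without the 10 described, 30 components and 20 neighbours, with Leiden clusters (leidenalg 0.10.2, igraph 0.11.9) at resolution 1, and microglia were split further (1000 genes, 15 components, resolution 0.5). Names rest on at least 3 markers and end in "-like", and 7519 nuclei stayed unnamed. Of the microglia, 2272 nuclei led by Ccl6 and 28 cycling nuclei were not compared. Nuclei were sexed by Xist against Y-linked transcripts.

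Counts were summed per library and type, state or sex where every library had at least 20 nuclei, and tested with edgeR 4.0.16 (limma 3.58.1, R 4.3.3; filterByExpr with minimum count 10, TMM, quasi-likelihood F-test, two-sided, Benjamini-Hochberg over all genes, threshold 0.05). All 6 libraries were in each fit, group contrasts without a replicate term and state and sex contrasts with the library as a block. Each group enters more than 1 contrast, so the contrasts are not independent. On simulated counts for microglia-like nuclei of 5xFAD-P522R against 5xFAD-M28L (13426 genes), 76 of 100 genes changed by a log2 of 1 and 98 of 100 changed by a log2 of 2 were recovered, with 8 false calls. Changes below a log2 of 1, the size of all differences of the 10 genes between groups in microglia-like nuclei, were not simulated. Recovery at those sizes is therefore not known. Levels by type used plain CPM and an exact paired permutation test (scipy 1.17.1).

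Results were recomputed with DESeq2 1.42.0, with RLE size factors, with no filter or a minimum count of 50, with only the 4 libraries compared, a replicate term, no library block, 1000 or more UMIs, doublets kept, resolution 2 for types and 1 for microglia, the 10 genes kept for clustering, and each library left out, where the 1 library that remains in a group is assumed to vary like the other groups. The mixed sub-cluster kept, single-sex fits and a sex call from at least 2 UMIs were added after seeing the data. Tests of whether a state or sex difference itself differed between groups were not planned beforehand either. The 10 genes and all lists were chosen with earlier results of these data known. Text naming was limited to the 10 genes, the 2 genes most like each by level, and up to 3 genes per list by unadjusted p, of which 1 gene is not reported here.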

Additional observations from a re-analysis of the deposited data

Results flagged for a closer look

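In a test that was not planned beforehand, the difference between female and male microglia-like nuclei differed between groups for Picalm. Its female-minus-male log2 difference was more negative in 5xFAD-M28L than in 5xFAD by -0.87 (SE 0.18, edgeR's quasi-likelihood test, adjusted p = 0.0428 over 11760 genes, of which 0.859% were called). Picalm had 665 and 780.3 TMM-normalized CPM in female and 1439 and 1158 CPM in male nuclei of 5xFAD-M28L, against 1150.0 and 1067 CPM in female and 1137 and 1037 CPM in male nuclei of 5xFAD. The value was -0.89 with RLE size factors (adjusted p = 0.0399), -0.88 without a filter on low counts (4.44e-06) and -0.94 where a sex call needed at least 2 UMIs (0.0503), and over all alternatives adjusted p ran from 4.44e-06 to 0.577. The share of disease-associated-like nuclei was 9.25% and 15.01% of female and 6.21% and 5.10% of male microglia-like nuclei in 5xFAD-M28L, and 0.881% and 35.8% of female and 18.7% and 31.7% of male nuclei in 5xFAD. The part of that makeup in the difference was not tested.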

How the results depend on the processing

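Bin1, Picalm, Sorl1, Cd33, Ptk2b, Cd2ap and Ms4a6d kept their direction and their call between disease-associated-like and homeostatic-like nuclei in all 15 settings. Over all comparisons the number of members called kept within 1.5 times its value in 738 cases and moved in 41. Of those kept, 518 were group contrasts by type and 91 within states. There the main count was 0, so a kept case only means that it stayed at 0. The cause was not tested for any of the changes below. The share of all genes called in each of these settings is not given here. The counts below are therefore not read as particular to the members. Abca7 and Ms4a6d rest on 773 and 693 UMIs in microglia.

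Without a filter on low counts, edgeR called 2 of the 10 genes for 5xFAD-P522R against 5xFAD-M28L in microglia, 1 for 5xFAD-P522R against 5xFAD and 1 for 5xFAD-M28L against 5xFAD. The same setting called 1 each in homeostatic-like nuclei for 5xFAD-P522R against 5xFAD-M28L and against 5xFAD, 1 for the difference of the disease-associated-like step between the variants, 1 between sexes and 2 for the sex difference of 5xFAD-M28L against 5xFAD. Outside microglia it called 2 in OPCs, 2 in excitatory and 3 in inhibitory neurons for 5xFAD-P522R against 5xFAD, and 1 in OPCs and 1 in excitatory neurons for 5xFAD-M28L against 5xFAD.

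With the replicate number as a block, edgeR called 1 gene each in microglia for 5xFAD-P522R against 5xFAD-M28L (Sorl1) and against 5xFAD (Picalm), 1 each (Picalm) for the same contrasts in homeostatic-like nuclei, 2 in OPCs for 5xFAD-P522R against 5xFAD and 2 for 5xFAD-M28L against 5xFAD, and 1 in excitatory neurons (Bin1) for 5xFAD-M28L against 5xFAD. Libraries that share a number deviated together in microglia (correlations of 0.309, 0.153 and 0.195 over 13629 genes), but the labels do not say that the numbers pair them.

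DESeq2 called 1 gene in excitatory neurons for 5xFAD-M28L against 5xFAD and 0 between interferon-like and homeostatic-like nuclei, as did a fit without the library block. A fit of only the 4 variant libraries called 3 in microglia, and a sex call from at least 2 UMIs left 0 for the sex difference of 5xFAD-M28L against 5xFAD.

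Leaving out single libraries gave 0 to 3 genes called in microglia for 5xFAD-P522R against 5xFAD-M28L, 0 to 3 for 5xFAD-P522R against 5xFAD and 0 to 1 for 5xFAD-M28L against 5xFAD, 0 to 1 in homeostatic-like and 0 to 1 in interferon-like nuclei between the variants, 7 to 8 for the disease-associated-like and 1 to 2 for the interferon-like state, 0 to 2 between sexes, and for their difference 0 to 2 (5xFAD-M28L against 5xFAD) and 0 to 1 (5xFAD-P522R against 5xFAD). Levels between the leading and next types then differed by a log2 of 0.41 to 0.49 for Picalm, 0.68 to 0.76 for Bin1, 0.71 to 0.80 for Cd2ap, 0.46 to 0.58 for Sorl1, 0.54 to 0.62 for Cd33, 2.48 to 2.68 for Ms4a6d, 2.87 to 3.33 for Abi3, 0.60 to 0.68 for Ptk2b and 0.48 to 0.60 for Mef2c. With 5 libraries the exact permutation test cannot go below p = 0.0625. Abca7 ranged from -0.10 to 0.30 and turned sign without 5xFAD replicate 2 (-0.0056), without 5xFAD-M28L replicate 2 (-0.066) and without 5xFAD replicate 3 (-0.098).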
